A study of Mus musculus with 4 samples.

Results

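Messenger RNA of 8 chemokine genes, Cxcl1, Cxcl2, Cxcl9, Cxcl10, Cxcl12, Cxcl14, Cxcl16 and Cx3cl1, was followed in single cells from the central nervous system of naive mice and of mice with experimental autoimmune encephalomyelitis (EAE), a model of autoimmune inflammation of brain and spinal cord. They are 8 of 41862 gene columns, chosen by name with earlier results of these data known. They were read in the 7899 of 12987 barcodes with at least 500 unique molecular identifiers (UMIs, which count captured RNA molecules) and at most 20% mitochondrial UMIs. All mice were C57BL6 and carried Aldh1l1CreERT2-TdTomato, in which a tamoxifen-inducible Cre driven by the astrocyte gene Aldh1l1 turns on a red reporter. All cells were sorted as TdTomato+ LAMP1+, LAMP1 being a lysosomal membrane protein that also reaches the cell surface, and then divided by surface TRAIL, a death ligand of the TNF family. EAE mice had received 150 µg of the myelin peptide MOG35-55 in complete Freund's adjuvant and were taken at the peak of disease, per the labels and the series text. The 4 groups, naive TRAIL-, EAE TRAIL-, naive TRAIL+ and EAE TRAIL+, held 1 inDrops library each. The series text gives 3 mice per condition, and the sources used here give neither pooling nor age nor tamoxifen schedule. With 1 library per group no spread between animals was measured and no test was possible. Differences below compare these libraries, and every interval is a 95% interval for counting error only.

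Chemokines are small secreted or membrane-bound proteins that direct the movement of leukocytes through G-protein-coupled receptors. CXC ligands are grouped by receptor: CXCL1 and CXCL2 attract neutrophils through CXCR2, CXCL9 and CXCL10 attract activated T cells through CXCR3, CXCL12 holds CXCR4+ cells at vessels and stromal niches, and CXCL16 binds CXCR6. CXCL14 is produced in many resting tissues, and its receptor use is less settled. CX3CL1, or fractalkine, signals to CX3CR1, a receptor that marks microglia. CXCL16 and CX3CL1 are made as membrane proteins and are shed by metalloproteases.

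The stretch before the start site is shown for 4 members, because Cxcl1 and Cxcl2 are known NF-kB targets and Cxcl9 and Cxcl10 known interferon targets, and both pairs were among the genes that differed between naive and EAE libraries. Each sequence holds the 250 bases upstream of the RefSeq start, on the gene's own strand, from RefSeq on GRCm38.p6: Cxcl1 at chr5:90890995-90891244 (plus strand), Cxcl2 at chr5:90903649-90903898 (plus), Cxcl9 at chr5:92328080-92328329 (minus) and Cxcl10 at chr5:92348890-92349139 (minus). Capitals mark matches, on either strand, to the kappaB motif bound by NF-kB and to the interferon-stimulated response element (ISRE), searched as GAAANNGAA.
Cxcl1: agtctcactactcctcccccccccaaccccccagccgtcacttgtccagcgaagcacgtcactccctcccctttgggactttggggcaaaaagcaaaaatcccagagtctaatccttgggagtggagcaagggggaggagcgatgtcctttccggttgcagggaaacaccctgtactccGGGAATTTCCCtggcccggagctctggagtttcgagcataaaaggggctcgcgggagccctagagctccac
Cxcl2: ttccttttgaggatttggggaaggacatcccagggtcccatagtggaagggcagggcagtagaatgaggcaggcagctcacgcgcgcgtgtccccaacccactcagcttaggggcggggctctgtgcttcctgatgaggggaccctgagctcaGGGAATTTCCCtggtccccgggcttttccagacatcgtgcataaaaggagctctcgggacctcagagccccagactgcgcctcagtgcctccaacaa
Cxcl9: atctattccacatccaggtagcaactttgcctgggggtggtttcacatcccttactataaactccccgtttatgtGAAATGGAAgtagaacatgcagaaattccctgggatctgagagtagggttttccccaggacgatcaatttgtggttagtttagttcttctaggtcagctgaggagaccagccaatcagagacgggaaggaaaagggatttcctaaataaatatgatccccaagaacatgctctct
Cxcl10: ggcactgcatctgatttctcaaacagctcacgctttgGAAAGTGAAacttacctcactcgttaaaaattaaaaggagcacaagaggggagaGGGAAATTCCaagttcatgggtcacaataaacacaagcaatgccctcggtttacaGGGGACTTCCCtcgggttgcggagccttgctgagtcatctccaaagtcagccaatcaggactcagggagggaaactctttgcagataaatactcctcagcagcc
The Cxcl1 and Cxcl2 windows each held a pair of kappaB matches on opposite strands, offset by 1 base. The plus-strand match began 71 bases before the start in Cxcl1 and 97 bases before it in Cxcl2. The Cxcl9 window held 1 ISRE match, 175 bases before the start, and no kappaB match in these letters. In the Cxcl10 window an ISRE match began 213 bases before the start, and kappaB matches began 159 and 104 bases before it, the latter overlapping a further match 103 bases before it on both strands. Cxcl14 matched the ISRE and the gamma-activated site (GAS, searched as TTCNNNGAA), while Cxcl12 and Cx3cl1 matched none of the 3 motifs in this window. Among 32851 RefSeq promoter windows of the same length, 7.25% held a kappaB match, 7.13% an ISRE match and 7.02% a GAS match, so single matches are common and describe letters only. Promoter sequences were read for 7 of the 8 members, and that of Cxcl16 was not analysed here.

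In the GENCODE M21 annotation of GRCm38, 4 members lie on chromosome 5 as separate pairs. Cxcl1 (ENSMUSG00000029380.11, chr5:90891241-90893115, plus strand) lies near Cxcl2 (ENSMUSG00000058427.10, chr5:90903871-90905938, plus). Cxcl9 (ENSMUSG00000029417.9, chr5:92321347-92328079, minus) lies near Cxcl10 (ENSMUSG00000034855.13, chr5:92346638-92348889, minus). The others lie apart: Cxcl12 (ENSMUSG00000061353.11, chr6:117168535-117181367, plus), Cxcl14 (ENSMUSG00000021508.11, chr13:56288643-56296551, minus), Cxcl16 (ENSMUSG00000018920.11, chr11:70453983-70459984, minus) and Cx3cl1 (ENSMUSG00000031778.13, chr8:94772009-94782427, plus). Values are sums over whole genes, and exons or isoforms were not separated.

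The 4 libraries kept 1597 to 2259 barcodes and 2549414 to 3759970 UMIs, with median depths of 949 to 1907.5 UMIs per barcode, and 7.05% to 8.62% of each library's listed barcodes also occurred in another library. Cells were clustered without any chemokine or chemokine receptor gene and named by marker lists. Although all samples are labelled astrocytes, astrocyte-like cells, with 18 of 18 listed markers detected in both naive libraries, were 1.51% of naive TRAIL-, 0.188% of EAE TRAIL-, 6.59% of naive TRAIL+ and 0.441% of EAE TRAIL+ barcodes. Endothelial-like cells (51.3% and 31.5%) and pericyte- or smooth-muscle-like cells (23.2% and 29.4%) led the naive and EAE TRAIL- libraries, and microglia-like cells (81.2% and 87.5%) led the TRAIL+ ones. Monocyte-like cells were 0.841% of naive and 14.6% of EAE TRAIL- barcodes, and 1.12% and 7.88% of TRAIL+ ones.

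Other properties of the libraries moved with disease state. Xist, the RNA of the silenced X chromosome of females, stood at 10.6 and 9.35 CPM (counts per 1000000 UMIs of the cells summed) in the naive TRAIL- and TRAIL+ libraries and at 663 and 1095 CPM in the EAE ones, and the Y-linked gene Ddx3y at 132 and 164 CPM against 3.92 and 3.46 CPM. Disease state and the sex that these genes mark therefore cannot be told apart in any naive-to-EAE comparison below. In the monocyte-like cluster 11 neutrophil markers, such as S100a8 and S100a9, summed to 46087 and 45494 CPM in the naive TRAIL- and TRAIL+ cells and to 579 and 305 CPM in the EAE cells, with Camp and Ngp at 0 in both EAE groups. This signal lay in few cells: 3 of 19 and 3 of 25 naive and 2 of 233 and 0 of 143 EAE cells had at least 1% of their UMIs from these markers. Values without these neutrophil-marked cells, a split chosen after seeing the data, are given beside the naive values of this cluster where they differ most. Finer clustering (Leiden resolution 2) set an unnamed cluster, led by H2-Eb1, H2-Aa and H2-Ab1, beside the monocyte-like one. In TRAIL+ the monocyte-like cluster then held 4 naive and 70 EAE cells, and the unnamed one 21 and 75. The mix of cells in the monocyte-like class may therefore differ between naive and EAE, and its part in the ratios below was not tested.

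Each chemokine had a characteristic source. Cxcl12 and Cx3cl1 came mostly from endothelial-like cells, and Cxcl14 from astrocyte-like cells of the naive libraries. Cxcl10 and Cxcl16 came mostly from microglia-like cells and, in EAE, also from monocyte-like cells. Cxcl9 came from monocyte-like and microglia-like cells of the EAE libraries, and Cxcl2 from all the myeloid classes. Cxcl1 came from vascular cells in the TRAIL- libraries and several classes in the TRAIL+ ones. In EAE TRAIL- the monocyte-like cells were the larger source, with 50.1% of Cxcl10 and 51.0% of Cxcl16 UMIs against 29.8% and 45.4% from microglia-like cells. Microglia-like cells of EAE TRAIL+ were 87.5% of its barcodes. They gave 1630 of 1779 Cxcl10 and 843 of 1053 Cxcl16 UMIs, near their share of cells. In CPM, Cxcl16 was higher in monocyte-like than in microglia-like cells of TRAIL+, at 492 against 191 in naive and 466 against 265 in EAE. In EAE TRAIL- these values were 385 and 370 CPM. Over all kept barcodes, 7547 UMIs of Cxcl2 were counted in 1066 cells, 5914 of Cxcl12 in 1434, 3824 of Cxcl10 in 856, 2310 of Cxcl16 in 1176, 1441 of Cxcl9 in 161, 714 of Cxcl1 in 142, 476 of Cx3cl1 in 316 and 207 of Cxcl14 in 116. A share of a whole library's UMIs moves with both the number of cells of a class and the RNA per cell, and in whole-library values these cannot be told apart.

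**Figure D1:**
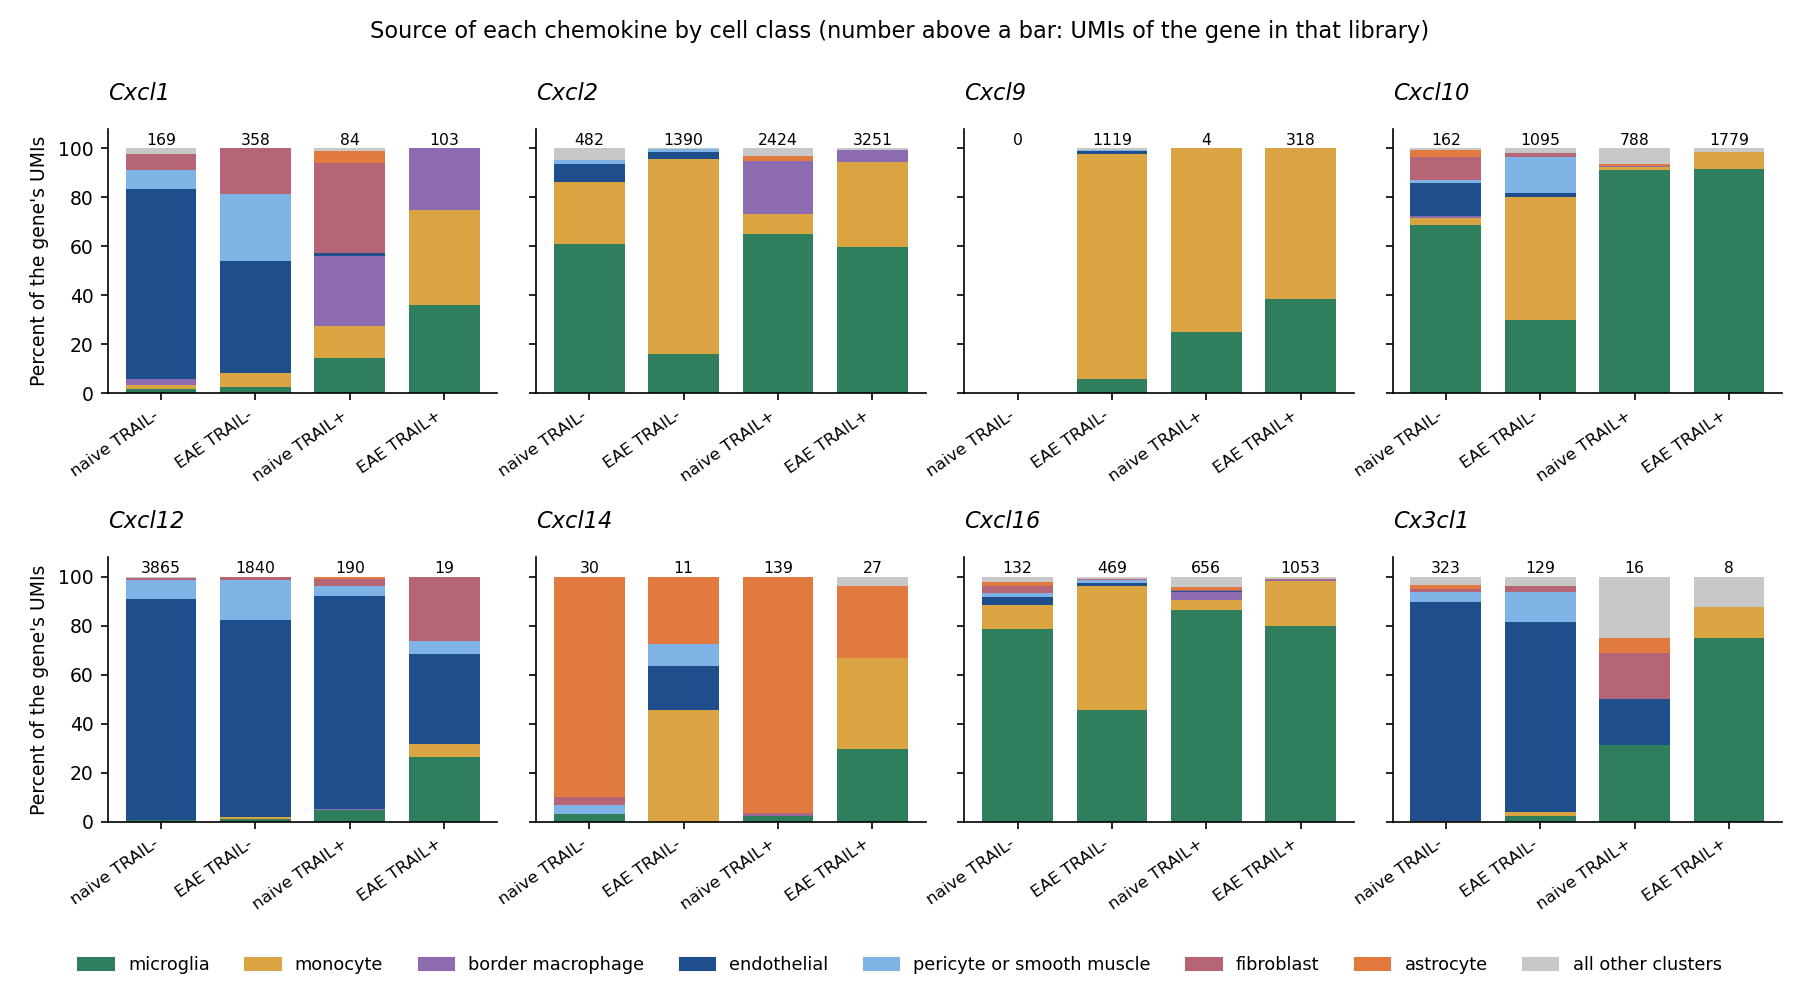
Stacked bars give the percent of each gene's UMIs that came from each cell class in each of the 4 libraries, with the gene's UMI number above the bar. Endothelial-like cells gave 90.1% of Cxcl12 in naive TRAIL-, monocyte-like cells 92.1% of Cxcl9 in EAE TRAIL-, and microglia-like cells 91.6% of Cxcl10 in EAE TRAIL+. These classes were 51.3%, 14.6% and 87.5% of the barcodes of those libraries.

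Of the CXCR3 ligands Cxcl9 and Cxcl10, Cxcl9 was the member furthest apart between whole naive and EAE libraries in both fractions. It was counted at 0, 439, 1.10 and 84.6 CPM in naive TRAIL-, EAE TRAIL-, naive TRAIL+ and EAE TRAIL+. It was close to absent without EAE: the naive libraries held 0 and 4 UMIs, against 1119 and 318. The EAE level was at least 402-fold higher in TRAIL- (against a floor of 3 UMIs) and 76.9-fold higher in TRAIL+ (29.7 to 284). With every cell weighted equally the TRAIL- bound was 241-fold.

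Monocyte-like cells gave 92.1% of the Cxcl9 UMIs of EAE TRAIL- and 61.6% of those of EAE TRAIL+. In that cluster Cxcl9 stood at 1659 CPM (1559 to 1763) in EAE TRAIL- and 478 CPM (413 to 550) in EAE TRAIL+ against 54.6 CPM in naive TRAIL+, and no UMI was found in the 19 naive TRAIL- cells. The gene was concentrated in few cells: 74 of 233 EAE TRAIL- and 23 of 143 EAE TRAIL+ cells had a UMI, and 31 and 6 of them had 10 or more. In the EAE libraries the TRAIL- level was 3.47-fold higher than the TRAIL+ level (2.98 to 4.06). Microglia markers summed to 3178 CPM in the TRAIL- and 11236 CPM in the TRAIL+ monocyte-like cells of EAE, and their part in this difference was not tested. The TRAIL+ share moved with how the classes were drawn. It was 13.5% with classes assigned by marker UMIs and 20.1% with finer clustering, while the TRAIL- share was 89.5% and 82.6%. With finer clustering the monocyte-like cluster held 70 EAE TRAIL+ cells, and the unnamed cluster led by H2-Eb1 held 75.

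Microglia-like cells also carried Cxcl9 in EAE, at 0, 111, 0.336 and 38.3 CPM in naive TRAIL-, EAE TRAIL-, naive TRAIL+ and EAE TRAIL+. That was 64 UMIs in 12 of 291 cells and 122 UMIs in 33 of 1588 cells, against 0 UMIs in 305 and 1 UMI in 1809 naive cells, respectively. The level was at least 18.1-fold higher in TRAIL-, and the 122 against 1 UMIs in TRAIL+ give a ratio of 114 (20.05 to 4532), which was 31.7 without the top cell of each library. After thinning every cell to 500 UMIs, 2.41% and 1.01% of EAE microglia-like cells kept a UMI of Cxcl9, where endothelial-like cells of EAE TRAIL-, which had a median of 1044 UMIs against 1902 and 1882.5, kept 0.795% (0.217 to 2.02). The endothelial share comes from the TRAIL- library alone, since EAE TRAIL+ held 3 endothelial-like cells, so background in EAE TRAIL+ was not measured. Those endothelial-like cells had 12 Cxcl9 UMIs in 10 of 503 EAE cells and none in 1159 naive TRAIL- ones. Monocyte markers summed to 298 and 430 CPM in naive and to 884 and 608 CPM in EAE microglia-like cells (TRAIL-, TRAIL+), and their part in the Cxcl9 difference was not tested.

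Cxcl10 was present in naive microglia-like cells and about 2-fold higher in EAE. Its level in microglia-like cells was 228, 566, 241 and 511 CPM in naive TRAIL-, EAE TRAIL-, naive TRAIL+ and EAE TRAIL+. Both EAE libraries were above both naive ones, and the ratios were 2.49 (1.998 to 3.11) in TRAIL- and 2.12 (1.94 to 2.32) in TRAIL+. The TRAIL+ ratio was under 2-fold, at 1.89 with scaling by a trimmed mean of log ratios (TMM) and 1.88 with every cell weighted equally. At 500 UMIs per cell a Cxcl10 UMI was found in 5.90% and 6.91% of naive and in 11.7% and 11.5% of EAE microglia-like cells, against 0.518% in naive and 0.994% in EAE endothelial-like cells of TRAIL-. Cells with 10 or more Cxcl10 UMIs numbered 1 and 5 in the naive and 12 and 42 in the EAE microglia-like cells of TRAIL- and TRAIL+.

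The microglia-like class was made of different clusters in the 2 conditions. Naive cells lay mostly in cluster 0 (290 of 305 and 1733 of 1809), led by P2ry12 and Fcrls, whereas EAE cells were spread over cluster 0 (70 and 563), cluster 3 (99 and 640), cluster 4 (119 and 359) and cluster 13 (3 and 26). Cluster 3 was led by Ccl12, Xist and H2-Q6, cluster 4 by Cd74 and other MHC class II genes, and cluster 13 by the interferon-induced genes Ifit3, Ifit1 and Rsad2. Within cluster 0, Cxcl10 was at 194, 233, 229 and 228 CPM in naive TRAIL-, EAE TRAIL-, naive TRAIL+ and EAE TRAIL+, so naive and EAE cells of this cluster lay within each other's counting intervals. Cluster 4 held 726 and 654 CPM in EAE TRAIL- and TRAIL+, cluster 3 held 378 and 504 CPM, and cluster 13 held 3610 CPM (3153 to 4115) in 18 of 26 EAE TRAIL+ cells. Cxcl9 followed the same order in EAE TRAIL+, at 4.73 CPM in cluster 0, 22.5 in cluster 3, 93.4 in cluster 4 and 193 in cluster 13, the last from 2 cells. As the clusters were drawn from genes of these cells, their differences are a description.

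**Figure D2:**
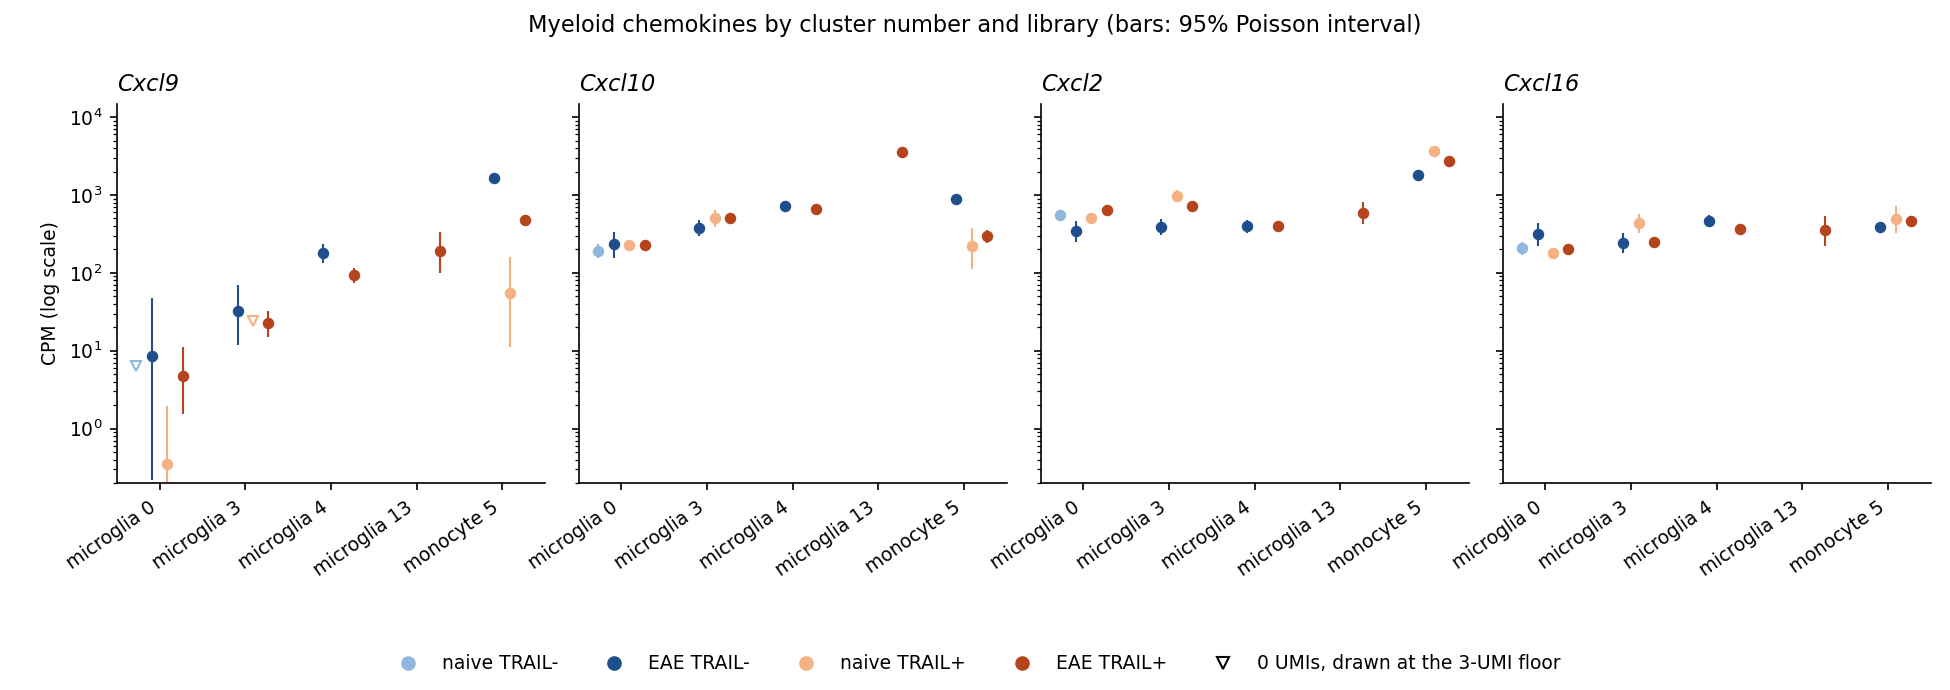
Points give CPM of Cxcl9, Cxcl10, Cxcl2 and Cxcl16 in microglia-like clusters 0, 3, 4 and 13 and in the monocyte-like cluster 5 for each library, with Poisson 95% bars. Cxcl10 reached 3610 CPM in cluster 13 of EAE TRAIL+ and stayed near 230 CPM in cluster 0 of both EAE libraries, at 233 and 228 CPM.

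Outside microglia-like cells, monocyte-like cells of EAE TRAIL- and TRAIL+ held Cxcl10 at 883 and 295 CPM, where those of the naive libraries held 105 and 218 CPM from 5 and 12 UMIs. In TRAIL+ the ratio of 1.35 had an interval that spans 1 (0.745 to 2.69), and without the neutrophil-marked cells the naive level was 308 CPM, above that of EAE. The TRAIL- level was 2.99-fold higher than the TRAIL+ level in EAE (2.45 to 3.68). Pericyte- or smooth-muscle-like cells held 4.46 CPM in naive and 328 CPM in EAE TRAIL-. The second value came from 163 UMIs in 14 of 470 cells, 1 of which carried 73, against 2 UMIs in 523 naive cells, a ratio of 73.4 (19.999 to 611) that was 25.8 among cells with at least 1000 UMIs and 40.6 with every cell weighted equally. The 12 monocyte markers summed to 40.2 CPM in naive and 613 CPM in EAE cells of this class, and 5 of the 14 carriers had at least 1% of their UMIs from markers of other lineages. With all barcodes above that 1% left out the ratio was 68.9.

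Cxcl2 and Cxcl1, the neutrophil attractants, differed in where they were found and in how they stood in EAE. Cxcl2 in the whole libraries was at 175, 545, 667 and 865 CPM in naive TRAIL-, EAE TRAIL-, naive TRAIL+ and EAE TRAIL+. The EAE value was 3.11-fold higher in TRAIL- (2.80 to 3.45) and 1.30-fold higher in TRAIL+ (1.23 to 1.37). In TRAIL- the myeloid source shifted: microglia-like cells gave 61.0% of naive and 15.8% of EAE UMIs, and monocyte-like cells 25.3% and 79.9%.

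Inside the microglia-like class Cxcl2 stood at 603, 382, 530 and 608 CPM in naive TRAIL-, EAE TRAIL-, naive TRAIL+ and EAE TRAIL+. EAE TRAIL- was the lowest of the 4 and the other 3 lay close together. The EAE-to-naive ratio was 0.633 (0.529 to 0.757) in TRAIL- and 1.15 (1.07 to 1.23) in TRAIL+, both short of a 2-fold difference. With classes assigned by marker UMIs the TRAIL- ratio was 0.492. Expression was uneven from cell to cell: 45 naive and 69 EAE TRAIL+ microglia-like cells had 10 or more UMIs, out of 326 and 354 with any.

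Cxcl2 was also found in the other myeloid classes. The monocyte-like cluster held 2559, 1786, 3641 and 2755 CPM in naive TRAIL-, EAE TRAIL-, naive TRAIL+ and EAE TRAIL+, and without its neutrophil-marked cells 3267, 1599, 4985 and 2755 CPM. Naive cells were the higher ones in both fractions, from 16 and 22 cells. The TRAIL+ ratio of EAE to naive, 0.757 with all cells of the cluster, was 1.01 with TMM, and 123 of the 1110 UMIs of EAE TRAIL- came from its 2 neutrophil-marked cells. Border-macrophage-like cells, the Mrc1+ Lyve1+ macrophages of meninges and perivascular spaces, were numerous enough only in naive TRAIL+, where 31 of 58 cells carried Cxcl2 at 6462 CPM (5920 to 7041) and gave 21.5% of the library's Cxcl2. In the 12 such cells of EAE TRAIL+ it was at 8400 CPM. In astrocyte-like cells of naive TRAIL+ 49 UMIs were found in 11 of 147 cells, 29 of them in 1 cell, and 7 of the 11 cells had at least 1% of UMIs from markers of other lineages.

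Cxcl1 was higher in the vascular classes of EAE TRAIL-. Whole-library levels were 61.5, 140, 23.1 and 27.4 CPM in naive TRAIL-, EAE TRAIL-, naive TRAIL+ and EAE TRAIL+. The EAE level was 2.28-fold higher in TRAIL- (1.90 to 2.76), and in TRAIL+ the ratio of 1.19 had an interval that spans 1 (0.880 to 1.60).

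In endothelial-like cells Cxcl1 was at 117 CPM in naive and 289 CPM in EAE TRAIL-, 2.46-fold higher (1.95 to 3.12). The carriers were few, 31 of 1159 and 32 of 503 cells, and the capillary-like cluster (112 and 310.5 CPM) had a ratio of 2.78 where the arterial-like cluster (134 and 211 CPM) had one of 1.57 (0.915 to 2.67). In pericyte- or smooth-muscle-like cells it was at 29.0 CPM in naive and 197 CPM in EAE TRAIL-, a ratio of 6.79 (3.79 to 13.2) that rests on 9 of 470 EAE cells and was 17.5 after removal of doublet calls and 12.4 without the top cell of each library. One fibroblast-like cell of EAE TRAIL- held 67 UMIs, and 28 of the 84 Cxcl1 UMIs of naive TRAIL+ came from 1 fibroblast-like cell. Cxcl2 in endothelial-like cells was at 31.3 CPM in naive and 66.9 CPM in EAE TRAIL-, a ratio of 2.14 (1.31 to 3.48) from 35 and 38 UMIs in 10 and 14 cells. It was 1.23 in cells with at least 1000 UMIs, 3.69 without doublet calls and 4.47 without cells carrying markers of other lineages.

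**Figure D3:**
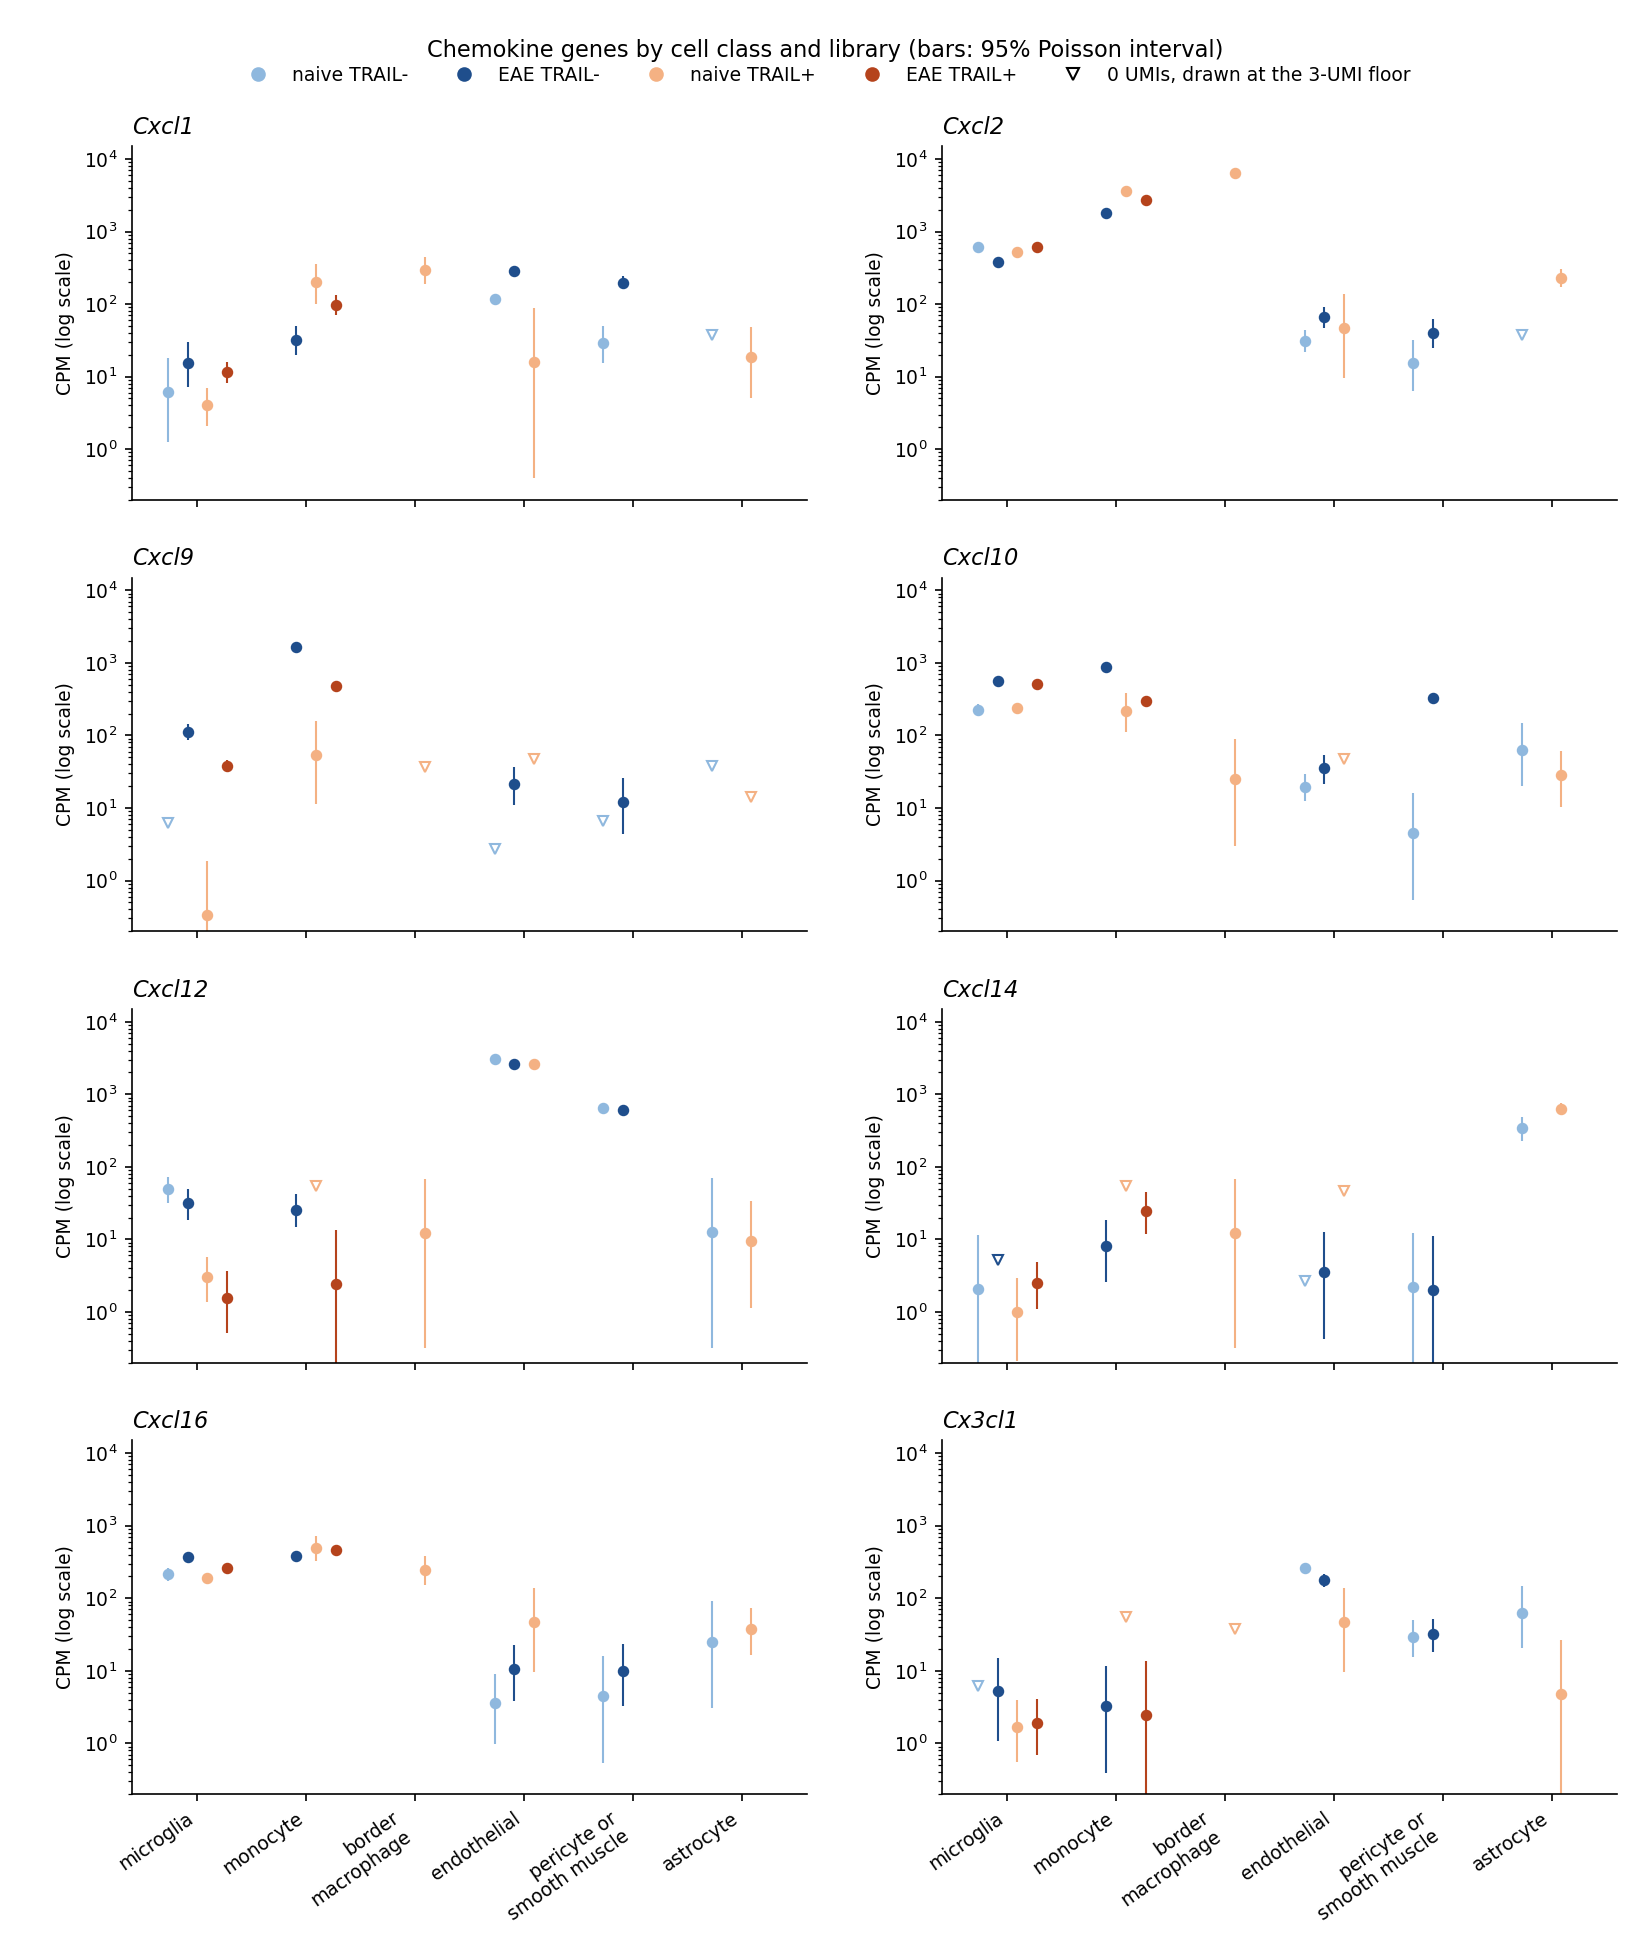
Points give CPM on a log axis for each gene, class and library with at least 20 cells, with Poisson 95% bars; open triangles stand at the 3-UMI floor where no UMI was counted. Cxcl12 stood at 3117 CPM in naive and 2610 CPM in EAE TRAIL- endothelial-like cells, and Cxcl9 was at the floor in naive microglia-like cells of TRAIL- and at 111 CPM in EAE.

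Cxcl16, which attracts CXCR6+ T cells and also acts as a scavenger receptor, was found in microglia-like and monocyte-like cells in all libraries. It was not particular to them: border-macrophage-like cells of naive TRAIL+ had 20 Cxcl16 UMIs in 14 of 58 cells. In microglia-like cells it was at 213, 370, 191 and 265 CPM in naive TRAIL-, EAE TRAIL-, naive TRAIL+ and EAE TRAIL+. Both EAE levels were above both naive ones, with ratios of 1.73 (1.36 to 2.21) and 1.39 (1.25 to 1.55), under 2-fold. At 500 UMIs per cell, 8.20% and 7.68% of naive and 13.4% and 11.6% of EAE microglia-like cells had a UMI, against 0.173% of naive endothelial-like cells in TRAIL-. Monocyte-like cells held 385 and 466 CPM in the EAE fractions and 492 CPM in naive TRAIL+ (532 CPM without neutrophil-marked cells), and the TRAIL+ ratio was 0.947 (0.631 to 1.475). In cluster 0 of TRAIL+, naive and EAE values of 180 and 201 CPM had overlapping intervals, and cluster 4 stood at 363 CPM.

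Cxcl12, the CXCR4 ligand that vessels make, was lower in EAE in the whole libraries and differed by less than 2-fold within endothelial-like cells. Whole-library levels were 1407, 722, 52.3 and 5.05 CPM in naive TRAIL-, EAE TRAIL-, naive TRAIL+ and EAE TRAIL+. The naive level was 1.95-fold higher in TRAIL- and 10.3-fold higher in TRAIL+ (6.44 to 17.6), where endothelial-like cells numbered 57 in naive and 3 in EAE. Endothelial-like cells held 3117, 2610 and 2592 CPM in naive TRAIL-, EAE TRAIL- and naive TRAIL+. The ratio within them was 0.837 (0.787 to 0.890), and 55.6%, 50.1% and 47.4% of cells had a UMI at 500 UMIs, against 0.111% of naive TRAIL+ microglia-like cells with a median depth of 1547 UMIs.

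In the arterial-like cluster of TRAIL- Cxcl12 stood at 3014 CPM in naive and 1823 CPM in EAE cells, a ratio of 0.605 (0.520 to 0.702). In the capillary-like cluster the ratio was 0.897. The difference between these 2 ratios was not tested. Pericyte- or smooth-muscle-like cells, with 650 CPM in naive and 605 CPM in EAE TRAIL-, had a ratio of 0.932 whose interval spans 1 (0.790 to 1.10), and the 29 fibroblast-like cells of naive TRAIL- held 682 CPM. Microglia-like cells of TRAIL- held 49.2 and 31.3 CPM of Cxcl12 where those of TRAIL+, with few endothelial cells in the library, held 3.03 and 1.57 CPM.

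Cx3cl1, like Cxcl12, was mostly found in endothelial-like cells of the TRAIL- libraries and was lower in whole EAE TRAIL-, at fewer UMIs. Whole-library levels were 118, 50.6, 4.40 and 2.13 CPM in naive TRAIL-, EAE TRAIL-, naive TRAIL+ and EAE TRAIL+, and the naive level was 2.32-fold higher in TRAIL- (1.89 to 2.87). In TRAIL+ 16 and 8 UMIs were too few to compare. In endothelial-like cells, which gave 89.5% of naive and 77.5% of EAE TRAIL- UMIs, it was at 259 and 176 CPM, a ratio of 0.681 (0.537 to 0.858). Capillary-like (226 and 148 CPM) and arterial-like cells (358 and 275.5 CPM) had ratios of 0.658 (0.489 to 0.874) and 0.769, the second with an interval that spans 1 (0.505 to 1.15). At 500 UMIs, 9.66% and 7.16% of endothelial-like cells had a UMI, against 1.53% and 1.49% of pericyte- or smooth-muscle-like cells. No cluster was named from the neuron list, although neurons are a known source of this chemokine.

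Cxcl14 was the astrocyte member in the naive libraries. Astrocyte-like cells gave 90.0% of its UMIs in naive TRAIL- and 96.4% in naive TRAIL+, from 13 of 34 and 70 of 147 cells, at 339 CPM (224 to 494) and 633 CPM (531 to 750). The TRAIL+ level was 1.87-fold higher (1.23 to 2.94), and at 500 UMIs 17.6% and 21.8% of cells had a UMI, with intervals that overlap. EAE held 3 and 8 astrocyte-like cells, too few to compare, and 631 CPM was counted in the 8. The whole-library levels of 10.9, 4.31, 38.2 and 7.18 CPM ran with the number of astrocyte-like cells, 34, 3, 147 and 8 in naive TRAIL-, EAE TRAIL-, naive TRAIL+ and EAE TRAIL+. The few UMIs of EAE lay largely in other cells. Of the 27 in EAE TRAIL+, 10 were in monocyte-like and 8 in microglia-like cells. Of the 11 in EAE TRAIL-, 5 were in monocyte-like cells.

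The members were chosen with earlier results of these data known, so the counts below are a description and no test of the set. All genes with at least 50 UMIs in a pair of libraries were counted. In whole TRAIL- libraries a 2-fold difference was met by 6.59% of them in the higher and 7.13% in the lower direction. Among 7 members a 2-fold difference was met by 5 higher (Cxcl1, Cxcl2, Cxcl9, Cxcl10, Cxcl16) and 1 lower (Cx3cl1). In whole TRAIL+ libraries it was met by 4.63% higher and 5.35% lower of all genes, and by 2 (Cxcl9, Cxcl10) and 2 (Cxcl12, Cxcl14) of 7 members. In microglia-like cells 2 of 4 members, Cxcl9 and Cxcl10, were higher in each fraction where 7.89% (TRAIL-) and 4.85% (TRAIL+) of all genes were, and no member was lower, against 8.24% and 0.862%. In endothelial-like cells of TRAIL- Cxcl1 and Cxcl2 were higher, 2 of 4 members against 2.99% of genes, and none was lower, against 4.49%. In pericyte- or smooth-muscle-like cells Cxcl1 and Cxcl10 were higher, 2 of 3 members against 3.15%, and none was lower, against 3.53%. In the monocyte-like cluster of TRAIL+, of which 25 cells were naive, Cxcl9 was higher and Cxcl1 lower among 5 members, against 23.7% and 6.62% of genes. The mix of cells in this cluster may differ between naive and EAE, as finer clustering split them unevenly. Cxcl9 stood there at 8.75-fold (2.95 to 42.8) from 196 against 3 UMIs, with a naive level of 54.6 CPM that was 84.0 CPM without neutrophil-marked cells, and at 20.2-fold without the top cell of each library. The Cxcl1 ratio of 0.487 had an interval (0.245 to 1.05) that spans 1 and was 0.714 without the top cells. It compares 97.5 CPM in EAE with 11 UMIs in naive cells, at 200.3 CPM with the neutrophil-marked cells and 308 CPM without them.

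EAE levels were also weighted by the naive library's class shares, over classes with at least 20 cells and 20000 UMIs in EAE. In TRAIL-, over classes with 93.8% of naive UMIs, the EAE-to-naive ratio was 2.73 for Cxcl1, 3.92 for Cxcl10 and 1.77 for Cxcl16, against 2.28, 7.29 and 3.83 in the whole libraries. For Cxcl2 it was 0.802 against 3.11, so the direction turned. For Cxcl12 it was 0.838 against 0.513 and for Cx3cl1 0.715 against 0.430. In TRAIL+, over classes with 86.8% of naive UMIs, it was 1.73 for Cxcl1, 1.09 for Cxcl2, 35.02 for Cxcl9, 2.04 for Cxcl10 and 1.34 for Cxcl16. Astrocyte-like cells in both fractions and endothelial-like cells in TRAIL+ were too few in EAE to enter, so Cxcl14 in both and Cxcl12 and Cx3cl1 in TRAIL+ have no such value for their main source. Border-macrophage-like and fibroblast-like cells of TRAIL+ were also too few. The classes that entered in TRAIL+ held naive Cxcl1 at 7.29 CPM, against 23.1 CPM in the whole library, so 1.73 leaves out most of it. For Cxcl2 they held 585 CPM against 667 CPM.

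**Figure D4:**
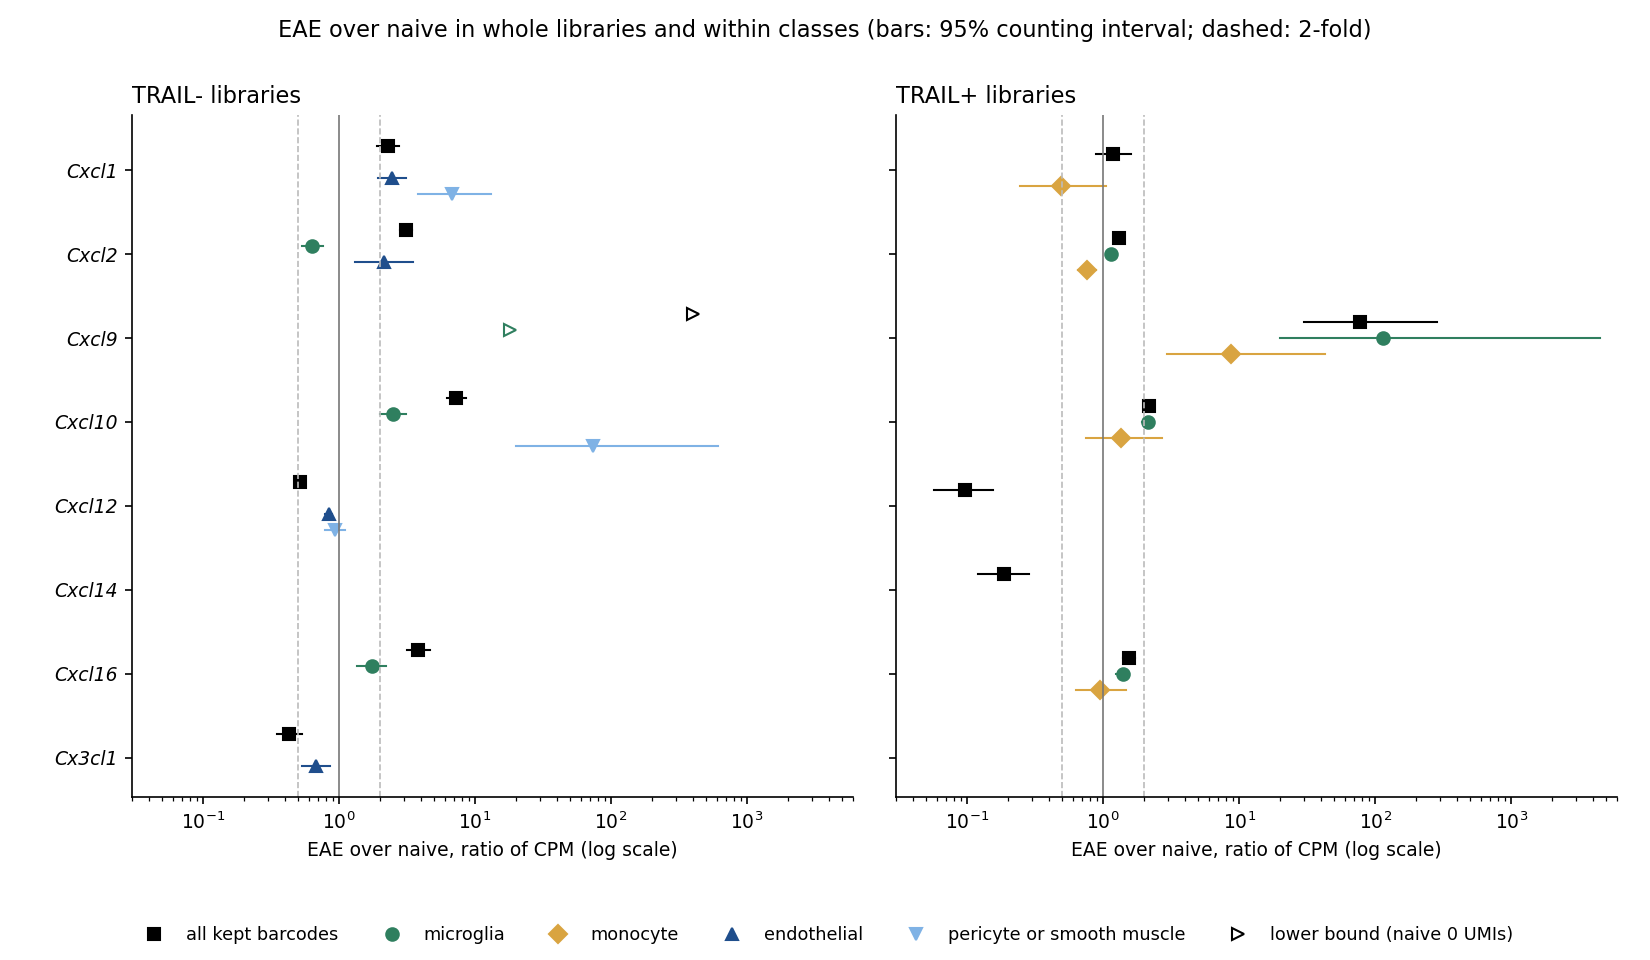
Points give the ratio of EAE to naive CPM on a log axis for each gene in whole libraries and in classes that could be compared, with exact 95% bars; the dashed lines mark a 2-fold difference and open triangles are lower bounds. Cxcl10 lies to the right of the line in microglia-like cells of both fractions (2.49 and 2.12, the second 1.89 with TMM), and Cxcl12 in endothelial-like cells lies close to 1 (0.837).

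Genes of the interferon-gamma pathway, which drives Cxcl9 and Cxcl10 in many cells, were mostly higher in EAE. This list and those below were also chosen with earlier results of these data known, so their counts are a description. Of 22 listed genes measured in whole libraries, 17 were at least 2-fold higher and 0 lower in both fractions, where 6.59% and 4.63% of all genes were higher, with a median log2 ratio of 1.54 in TRAIL- and 1.56 in TRAIL+ against -0.14 and -0.02 over all genes. In microglia-like cells 13 of 16 (TRAIL-) and 16 of 22 (TRAIL+) were higher, against 7.89% and 4.85% of all genes. The GTPase gene Gbp2 went from 8.21 to 335 CPM and from 9.42 to 185 CPM there. In pericyte- or smooth-muscle-like cells of TRAIL- 6 of 9 were higher, against 3.15%, among them Irf1 (11.2 to 115 CPM) and the GTPase gene Iigp1 (42.4 to 279 CPM). In endothelial-like cells 2 of 19 were higher, against 2.99% of all genes, Gbp2 (107 to 291 CPM) and Irf1 (111 to 250 CPM), with a median log2 ratio of 0.28.

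NF-kB, which drives Cxcl1 and Cxcl2, was followed by a list of its inducers and feedback genes. In whole TRAIL- libraries 6 of 21 were higher and 0 lower, against 6.59% and 7.13% of all genes. Among the 6 were Il1b (344 to 1486 CPM) and Ptgs2, the inducible cyclooxygenase (62.2 to 300 CPM). In TRAIL+ 0 of 20 were higher or lower, against 4.63% and 5.35% of all genes. Endothelial-like cells had 4 of 16 higher, against 2.99% of all genes: Il1b (13.4 to 77.5 CPM), Ptgs2 (22.4 to 98.6 CPM), the interleukin-1 receptor gene Il1r1 (22.4 to 66.9 CPM) and the adhesion molecule gene Icam1 (86.8 to 217 CPM). One, Nfkbib, was lower. Pericyte- or smooth-muscle-like cells had 3 of 8 higher, against 3.15%: Il6 (24.6 to 125 CPM), Il1b (22.3 to 92.5 CPM) and Nfkb1 (96.0 to 193 CPM). In monocyte-like cells of TRAIL+, Il1b stood at 5953 CPM in naive and 5323 CPM in EAE, a ratio of 0.894 (0.796 to 1.01). In TRAIL-, where the differences above lie, this class held 19 naive cells, too few to compare. Monocyte markers summed to 67.1 CPM in naive and 241 CPM in EAE endothelial-like cells and to 40.2 and 613 CPM in pericyte- or smooth-muscle-like cells. Their part in these differences was not tested. In microglia-like cells 1 gene was higher (Ptgs2) and 1 lower (Tnfaip3) of 18 in TRAIL-, near the 7.89% and 8.24% of all genes. In TRAIL+ 0 of 20 were higher or lower there, against 4.85% and 0.862% of all genes.

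The receptors of these ligands were found in several classes. Cxcr4, the receptor of CXCL12, was at 541 and 397 CPM in monocyte-like cells of EAE TRAIL- and TRAIL+. It was at 7.16 and 7.04 CPM in naive and EAE endothelial-like cells. In whole libraries it was 8.72-fold (6.36 to 12.2) and 4.29-fold (3.10 to 6.04) higher in EAE. Within monocyte-like cells of TRAIL+ the ratio was 1.82 (1.01 to 3.59), with 218 CPM in naive cells from 12 UMIs. In microglia-like cells of TRAIL+ it was 2.20 (1.22 to 4.13), from 40 and 17 UMIs in EAE and naive. Monocyte-like cells were 0.841% of naive and 14.6% of EAE TRAIL- barcodes, and 1.12% and 7.88% in TRAIL+. Their part in the whole-library ratios was not tested. Ackr3, the scavenger of CXCL12, was at 826 and 728 CPM in naive and EAE pericyte- or smooth-muscle-like cells and at 221 and 118 CPM in endothelial-like cells. Cx3cr1, the receptor of CX3CL1, was at 5033 and 2292 CPM in naive and EAE microglia-like cells of TRAIL- and stood at 5002 and 2975 CPM in TRAIL+, ratios of 0.455 and 0.595. Cxcr3 had 9 to 17 UMIs in each whole library and Cxcr6 had 1 to 16. Cxcr6 had 1 UMI in naive and 16 in EAE TRAIL-, a ratio of 17.2 (2.68 to 723), and 7 of the 16 came from 1 cell. Cxcr2 was at 315 CPM in the 19 naive TRAIL- cells of the monocyte-like cluster, from 15 UMIs, and at 20.9 CPM in its EAE TRAIL- cells. In EAE TRAIL+ 54 of the 64 Cxcr2 UMIs were in microglia-like cells, at 16.9 CPM. These cells were 87.5% of that library's barcodes, so the share of Cxcr2 is near their share of cells.

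Of 8 further CXC and XC chemokine genes in the files, 1 had 50 UMIs in a pair of libraries: Pf4, at 45.1 CPM in naive and 11.2 CPM in EAE TRAIL+, was 4.04-fold lower. Pf4 led the border-macrophage-like cluster, which was 2.60% of naive and 0.662% of EAE TRAIL+ barcodes. The part of this difference in cell numbers was not tested. Cxcl13, a B-cell attractant, had 1 UMI in each naive library and 11 and 24 UMIs in EAE TRAIL- and TRAIL+, ratios of 11.9 (1.72 to 510) and 23.2 (3.78 to 954). Of the sheddases and peptidases that cut these ligands, 0 of 5 differed 2-fold in TRAIL-, where 6.59% of all genes were higher and 7.13% lower. In TRAIL+ 1 of 4, Mmp12, was higher, at 2.49-fold, against 4.63% of all genes. Adam10, which sheds CX3CL1 and CXCL16, was at 199 and 179 CPM in naive and EAE TRAIL- and at 196 and 197 CPM in TRAIL+.

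Members overlapped in single cells to different degrees. In monocyte-like cells of EAE TRAIL-, 35 of 74 Cxcl9+ cells (47.3%) also had Cxcl10, against 21.4% of the cells without Cxcl9, and 41 of 74 (55.4%) had Cxcl16, against 29.6%. Cxcl2 did not go with Cxcl9 there: 20 of 77 Cxcl2+ cells (26.0%) had Cxcl9, against 34.6% of cells without Cxcl2. In EAE TRAIL+, 15 of 16 Cxcl1+ monocyte-like cells (93.8%) also had Cxcl2, against 50.4% of the rest. In EAE endothelial-like cells 8 of 32 Cxcl1+ cells (25.0%) had Cxcl2, against 1.3% of the others. Cells with a UMI of a gene tend to be deeper, and these shares were not adjusted for depth.

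Across 20 groups of class and library, the genes whose log2(CPM + 10) ran closest to each member are given as a description, since groups of a library share depth and free RNA. They were Ms4a4c for Cxcl9 (Pearson r 0.986), C5ar1 for Cxcl2 (0.956), Foxf2 for Cxcl12 (0.986), Nfe2l2 for Cxcl16 (0.953), Aqp4 for Cxcl14 (0.943), Tsc22d1 for Cx3cl1 (0.922), Ptgs2 for Cxcl10 (0.843) and Sav1 for Cxcl1 (0.826). Ms4a4c and Aqp4 are among the listed markers of monocytes and astrocytes.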

How the data were processed

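The deposited tables hold UMI counts per barcode and gene from inDrops version 3 libraries, 1 per group, without scaling by the authors; the submitters' processing notes name Bowtie and GRCm38, without a version, an annotation or the use of strand. Cells came from papain-digested tissue cleared on 30% Percoll, per the labels. Kept barcodes had at least 500 UMIs and at most 20% mitochondrial UMIs, at total depths of 2856696 to 3984975 UMIs per library before this filter. In Python 3.11.15 (numpy 2.4.6, scikit-learn 1.9.0, leidenalg 0.10.2) counts were scaled to 10000 and log-transformed, and chemokine and chemokine receptor genes were left out. The 2000 genes of highest dispersion for their mean level, 30 principal components, 15 neighbours and Leiden resolution 1 gave the clusters. A cluster took the name of the marker list with the highest scaled mean, if at least 0.5 with 3 markers in 10% of cells, and stayed unnamed if its 10 leading genes held more markers of another list; this rule was set after marker levels were seen, and left clusters 10 and 14 unnamed. Scrublet, run in scanpy 1.11.5 at an expected rate of 5%, called 0.18% to 1.8% of barcodes, which stayed in and were removed as an alternative.

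UMIs were summed per class and library to CPM (counts per 1000000 UMIs) with exact Poisson intervals, and ratios and shares had exact Clopper-Pearson intervals. With 1 library per group there was no test; a gene was called at 2-fold among genes with at least 50 UMIs in the pair, in classes of at least 20 cells and 20000 UMIs in both. A count of 0 was replaced by a floor of 3 UMIs. Shares of cells were thinned to 500 UMIs. The summing and calling steps were tested on simulated data. Alternatives were TMM (edgeR 4.0.16) and DESeq2 1.42.0 size factors, at least 1000 UMIs, at most 10% mitochondrial UMIs, at least 10 UMIs in a pair, a 1.5-fold limit, equal weighting of cells, classes by marker UMIs, resolution 2, and removal of doublet calls, of cells with at least 1% of UMIs from other lineages' markers, and of each top cell. The genes named are the 8 members and, of each list, examples that include genes not called or under 50 UMIs. The 3 most alike genes per member needed 200 UMIs. Members and lists were chosen with earlier results of these data known.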

Additional observations from a re-analysis of the deposited data

Results flagged for a closer look

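Cxcl2 in microglia-like cells lay on opposite sides of 1 in the 2 sort fractions: the EAE-to-naive ratio was 0.633 in TRAIL- and 1.15 in TRAIL+, and the difference between them was not tested, since each value compares 1 library with 1 library.

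Barcodes under 500 UMIs, which enter no comparison above, also held CXCR3 ligand UMIs in EAE. Cxcl9 was at least 19.9-fold higher in EAE TRAIL- (49 against 0 UMIs) and at least 9.70-fold higher in EAE TRAIL+ (20 against 0 UMIs). Cxcl10 was 12.9-fold higher in TRAIL- (5.19 to 41.3), from 53 against 5 UMIs. Such barcodes can hold shallow cells or free RNA, which were not separated.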

How the results depend on the processing

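Of 36 EAE-to-naive ratios of members none reversed among called values. They moved beyond their interval in 5 with TMM, 1 with DESeq2 size factors, 5 with at least 1000 UMIs, 0 with at most 10% mitochondrial UMIs, 2 without doublet calls, 1 without cells carrying other lineages' markers, 7 with equal weighting, 2 without top cells, 1 of 15 with classes by marker UMIs and 0 of 17 at resolution 2. With cluster 10 counted as microglia-like, an alternative chosen after seeing the data, 0 of 8 moved. The uncalled Cxcl2 ratio of the monocyte-like cluster in TRAIL+, 0.757, was 1.01 with TMM, whose shift there was 0.42 (log2), against -0.17 in microglia-like cells of TRAIL+, where Cxcl10 was 1.89.

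Counts of called members kept within 1.5 times in 143 cases and moved in 17. The share of all genes was computed under the main rule only, so the counts under other settings have no background beside them. They show only how the calls depend on the setting. Lower in whole TRAIL-: 1, and 2 without cells carrying other lineages' markers, at 10 UMIs or at 1.5-fold. Lower in microglia-like TRAIL-: 0, and 2 with classes by marker UMIs and 1 at 1.5-fold. Higher in microglia-like TRAIL+: 2, and 1 with TMM or equal weighting and 4 at 10 UMIs. Higher in monocyte-like TRAIL+: 1, and 2 without top cells. Lower there: 1, and 0 with TMM, without other-lineage cells or without top cells, and 2 at 10 UMIs. Higher in endothelial-like TRAIL-: 2, and 1 with TMM, at least 1000 UMIs or without other-lineage cells, and 4 at 10 UMIs. The causes were not tested. Source shares moved in 14 of 24 with classes by marker UMIs and 10 of 24 at resolution 2, and shares of cells in 28 of 37 without thinning.

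No paired analysis was possible because each group has 1 library and the labels carry no replicate numbers, and with 1 library per group none was left out in turn. Depth limits Cxcl14 and Cx3cl1 in TRAIL+ and all members in fibroblast-like and EAE astrocyte-like cells. Intervals cover counting error and not animals, and sex and disease state cannot be told apart.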
